A study of Mus musculus with 6 samples.

Results

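The chemokine receptor genes *Ccr1*, *Ccr2*, *Ccr3*, *Ccrl2*, *Cx3cr1*, *Cxcr3*, *Cxcr4* and *Cmklr1* were followed in resting bone-marrow-derived macrophages (BMDMs) with and without CITED2. They were taken by name from the expression matrix and make up 8 of its 22248 genes. All 8 had a mean of at least 1 FPKM (fragments per kilobase of transcript, scaled to library size) over the 6 libraries, as did 11687 genes in all. The control group comprised 3 libraries from *Lyz2cre* mice, and the CITED2-deficient group comprised 3 libraries from *Cited2 fl/fl*:*Lyz2cre* mice. Both groups were C57BL/6 animals labelled postnatal week 10, both carried Cre recombinase in the *Lyz2* locus, which is active in myeloid cells, and no group lacked Cre. Bone marrow cells were cultured for 7 days with macrophage colony-stimulating factor and were not stimulated further. The labels do not tie each library to a separate animal, so p-values measure the spread between libraries, which may be partly technical.

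Chemokines are small secreted proteins that guide leukocytes along concentration gradients. Their receptors span the membrane repeatedly and couple to inhibitory G proteins, which release phosphoinositide 3-kinase gamma, phospholipase C beta and Rac activity at the leading edge of the cell. G protein-coupled receptor kinases and beta-arrestins then switch the receptors off. In the monocyte and macrophage lineage CCR2 brings monocytes from marrow to inflamed tissue, CXCR4 retains cells in the marrow, CX3CR1 marks patrolling monocytes and many tissue macrophages, and CMKLR1 answers the attractant chemerin.

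*Cited2*, the targeted gene, had 75.5 ± 3.79 FPKM (SD, n = 3) in control and 8.01 ± 1.10 FPKM (SD, n = 3) in CITED2-deficient BMDMs, and its groups did not overlap. Whole fragment numbers could be recovered from the FPKM, and depth was 17289286 to 18952077 fragments in control and 22583995 to 26100410 in CITED2-deficient libraries. The 8 macrophage markers moved both ways and summed to 5624 to 5694 FPKM in control and 5287 to 5367 in CITED2-deficient libraries. *Adgre1*, at 2193 to 2234 and 1748 to 1815 FPKM, was 1 of 5 lower genes, *Fcgr1* rose from 172 ± 0.793 to 482 ± 17.2 FPKM (SD, n = 3), and *Cd68* and *Cd14* were not called. *Lyz2* itself was at only 30.6 to 32.5 and 9.39 to 10.0 FPKM. CITED2-deficient replicate 1 stood apart in fibroblast genes, with *Col1a1* at 304 FPKM against 62.0 and 62.6 in replicates 2 and 3 and 14.2 to 16.6 in control. The summed FPKM of dendritic cell markers was 16.7 to 20.0 in control and 22.8 to 26.3 in CITED2-deficient libraries. Of the 5 listed genes 4 averaged below 1 FPKM, so 1 gene made up most of this sum. Of 6 neutrophil and granulocyte precursor markers 5 were lower, among them *Elane* (12.4 ± 0.491 and 2.15 ± 0.0701 FPKM; SD, n = 3), and 1 was higher, with sums of 471 to 524 and 427 to 497 FPKM. Plasmacytoid dendritic cell markers (at most 2.85 FPKM) and B cell markers (at most 3.29) were low in both groups. Without CITED2-deficient replicate 1 the receptor counts given next were the same. Of all tested genes 51.3% passed the threshold of an adjusted p of 0.05 in limma, so a call by itself was common.

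The 8 genes lay on 4 chromosomes of mm10. On chromosome 9 lay *Ccr1* (123962124 to 123968692), *Ccr3* (124021972 to 124031689) and *Ccr2* (124101950 to 124113557), which together spanned 151.4 kb, and also *Ccrl2* (111054486 to 111057519) and *Cx3cr1* (119901616 to 120069879). *Cxcr4* was on chromosome 1 (128588199 to 128592293), *Cmklr1* on chromosome 5 (113612354 to 113650426) and *Cxcr3* on chromosome X (101731535 to 101734269). Promoter windows of 250 bases ahead of the annotated RefSeq start were read from RefSeq (GRCm38.p6), in which all 8 genes were matched, and searched on both strands. The RefSeq starts differ in part from the gene spans just given, which are those of GENCODE. The windows of *Cx3cr1* and *Cmklr1* lie inside these spans, that of *Ccr2* almost wholly and that of *Cxcr3* in part. The motifs were the STAT/BCL6 palindrome TTCNNNGAA, the interferon regulatory factor motif (GAAA, any 2 bases and GAAA again), the NF-kB consensus of 10 bases and the core GAGGAA of the macrophage factor PU.1. Of 32851 mouse windows of the same length, 7.02%, 2.98%, 7.25% and 23.3% held these motifs. The STAT/BCL6 and interferon regulatory factor letters were in the window of 0 of the 8 genes. NF-kB letters were in the windows of *Ccrl2* at 56, *Ccr1* at 74 and *Ccr3* at 179 bases ahead of the start, and PU.1 letters were in those of *Ccr1*, *Ccr3*, *Cxcr3* and *Cmklr1*. In *Ccr3* the NF-kB and PU.1 matches overlapped. The 5 windows printed are those of the 3 genes with an NF-kB match, one of which was higher, one lower and one not called, and of *Ccr2* and *Cxcr4*, which changed almost equally and held none of the motifs. Each is written 5′ to 3′ on the strand of its gene, and capitals mark the matches.

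*Ccrl2* (chr9:111057519-111057768, minus strand): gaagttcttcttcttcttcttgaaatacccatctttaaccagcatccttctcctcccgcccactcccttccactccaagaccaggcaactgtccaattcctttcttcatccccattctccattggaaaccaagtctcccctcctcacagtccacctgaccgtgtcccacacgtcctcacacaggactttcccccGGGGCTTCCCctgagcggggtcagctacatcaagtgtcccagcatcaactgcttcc
*Ccr1* (chr9:123968693-123968942, minus strand): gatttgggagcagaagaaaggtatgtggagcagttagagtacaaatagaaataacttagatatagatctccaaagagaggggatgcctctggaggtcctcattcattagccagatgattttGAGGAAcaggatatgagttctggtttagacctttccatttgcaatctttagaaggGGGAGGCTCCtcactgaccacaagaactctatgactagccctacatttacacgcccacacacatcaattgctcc
*Ccr3* (chr9:124021721-124021970, plus strand): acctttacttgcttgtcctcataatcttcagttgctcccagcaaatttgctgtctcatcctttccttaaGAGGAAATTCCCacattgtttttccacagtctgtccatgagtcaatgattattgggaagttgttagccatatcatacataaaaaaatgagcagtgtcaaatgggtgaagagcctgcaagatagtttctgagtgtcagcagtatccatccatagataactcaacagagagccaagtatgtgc
*Ccr2* (chr9:124101933-124102182, plus strand): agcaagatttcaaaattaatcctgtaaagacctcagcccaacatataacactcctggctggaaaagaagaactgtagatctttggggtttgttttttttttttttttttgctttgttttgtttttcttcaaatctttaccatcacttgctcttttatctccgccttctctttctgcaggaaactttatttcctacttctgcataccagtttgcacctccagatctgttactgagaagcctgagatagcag
*Cxcr4* (chr1:128592300-128592549, minus strand): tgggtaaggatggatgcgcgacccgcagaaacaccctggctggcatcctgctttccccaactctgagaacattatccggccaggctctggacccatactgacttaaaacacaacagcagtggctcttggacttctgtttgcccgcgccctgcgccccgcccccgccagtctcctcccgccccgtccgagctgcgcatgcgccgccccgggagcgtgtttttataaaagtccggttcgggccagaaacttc

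The comparison of the genotypes asked which receptor genes of resting macrophages differ when CITED2 is missing. *Cxcr4*, *Ccr2*, *Ccrl2* and *Cmklr1* were higher in CITED2-deficient BMDMs, *Ccr3* was lower, and *Ccr1*, *Cxcr3* and *Cx3cr1* did not pass the threshold. Among all tested genes 16.7% were called higher and 34.6% lower. The groups did not overlap for the same 5 receptor genes, 4 higher and 1 lower, against 19.0% higher, 40.9% lower and 59.9% in either direction among all tested genes. The median log2 fold change of the 8 was 0.19, and that of all tested genes was -0.10, where the fold change is of FPKM + 1 throughout. After median-ratio scaling, which moved the median of all genes to -0.01, 23.1% of genes were higher and 21.3% lower. The 4 higher receptor genes stayed past the threshold with that scaling, and *Ccr3* did not (log2 fold change -0.27, adjusted p = 0.0588 in limma). In bulk RNA, fewer cells of a type and less RNA per cell cannot be told apart.

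**Figure D1:**
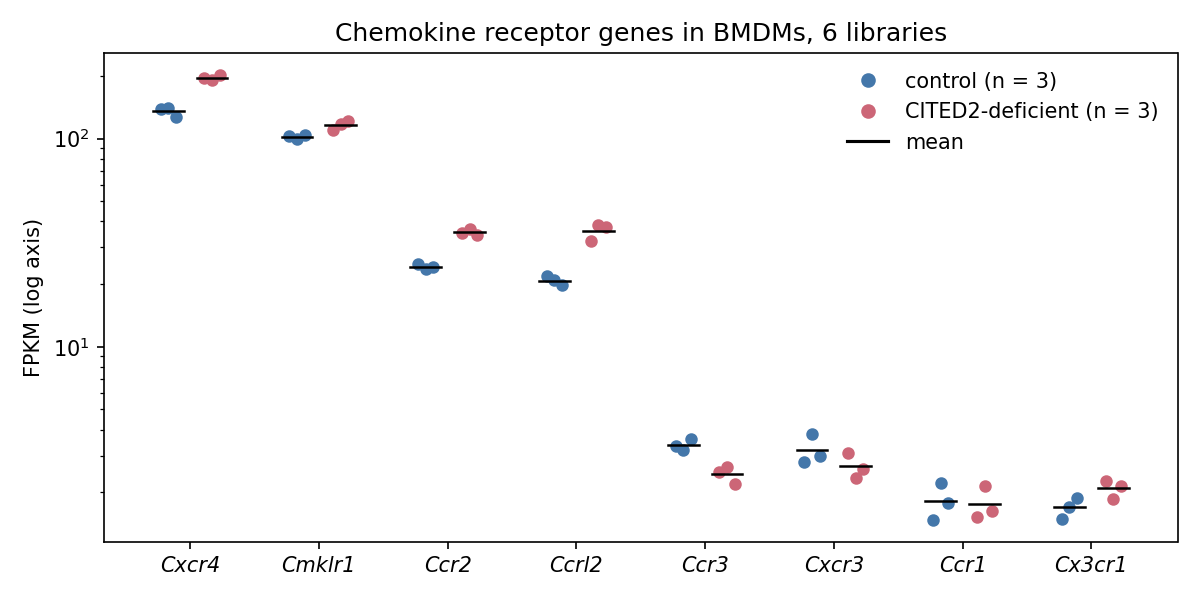
FPKM of the 8 receptor genes on a log axis, with a point for each library and a line at each group mean. *Cxcr4* and *Cmklr1* sit near or above 100 FPKM, *Ccr2* and *Ccrl2* between 19.7 and 38.4, and the other 4 genes below 4, and the groups are apart for *Cxcr4*, *Cmklr1*, *Ccr2*, *Ccrl2* and *Ccr3*.

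*Cxcr4*, the receptor for CXCL12 that holds leukocytes and their precursors in the marrow, was the most abundant of the 8. It had 139, 139.6 and 126 FPKM in control replicates 1 to 3 and 196, 191 and 202 FPKM in the corresponding CITED2-deficient libraries. Every CITED2-deficient library was above every control library. Group means were 135 ± 7.49 and 196 ± 5.39 FPKM (SD, n = 3), a log2 fold change of 0.54 (SE 0.04, adjusted p = 9.53e-06 from limma). These values rested on 3240 to 3556 fragments in control and 5833 to 7122 in CITED2-deficient libraries, so that counting error was at most 1.76% of a value. Leaving out each library gave log2 fold changes of 0.49 to 0.56.

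*Ccr2*, which binds CCL2, CCL7 and CCL12 and draws classical monocytes out of the marrow, rose by nearly the same factor. Its FPKM was 25.1, 23.6 and 24.1 in control and 35.1, 37.0 and 34.5 in CITED2-deficient replicates 1 to 3. Both groups were narrow and well apart, with 24.3 ± 0.759 against 35.5 ± 1.29 FPKM (SD, n = 3). The log2 fold change was 0.53 (SE 0.05, adjusted p = 1.56e-05 from limma), a fold of 1.44 with a 95% confidence interval of 1.34 to 1.55. *Ccr2* shared 1.91% of its 50-base stretches with transcripts of other genes, so a small part of its fragments could have been assigned either way. Monocyte markers moved with *Ccr2*. *Ly6c2* was at 6.73 to 9.20 FPKM in control and 33.6 to 38.7 in CITED2-deficient libraries, *Plac8* at 3.01 to 6.95 and 60.7 to 70.5, and *Spn* at 4.78 to 6.54 and 13.8 to 15.4, and these 3 genes were called higher. *Nr4a1*, a factor of nonclassical monocytes, was lower (log2 fold change -1.17). Their part in the *Ccr2* value was not tested.

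*Ccrl2*, an atypical receptor that binds chemerin without known G protein signaling and presents it to CMKLR1, had the largest change of the 8. Its FPKM was 21.8, 20.9 and 19.7 in control and 32.2, 38.4 and 37.5 in CITED2-deficient replicates 1 to 3. CITED2-deficient replicate 1 was the lowest of its group and still above every control library. The means were 20.8 ± 1.05 and 36.0 ± 3.34 FPKM (SD, n = 3), with a log2 fold change of 0.76 (SE 0.07, adjusted p = 2.4e-05 from limma) and a fold of 1.69 (95% confidence interval 1.52 to 1.89). Of all tested genes, 94.3% had a smaller log2 fold change. The neighboring gene *Ltf*, which encodes lactoferrin and ends 11.7 kb from *Ccrl2*, had 94.3 ± 4.77 and 177 ± 13.2 FPKM (SD, n = 3). *Ltf* is the higher gene of the neutrophil and granulocyte precursor markers, whose other 5 genes were lower.

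*Cmklr1*, the signaling receptor of chemerin on macrophages, rose by a smaller factor. It had 103, 99.5 and 104 FPKM in control and 110.1, 117 and 121 FPKM in CITED2-deficient replicates 1 to 3. The groups did not overlap, but the lowest CITED2-deficient library lay close to the highest control library. Its means were 102 ± 2.32 and 116 ± 5.64 FPKM (SD, n = 3), a log2 fold change of 0.18 (SE 0.04, adjusted p = 0.00484 from limma) and a fold of 1.14 with a 95% confidence interval of 1.07 to 1.21. With median-ratio scaling the log2 fold change was 0.29. An antisense gene lies within *Cmklr1*, and the sources used here do not say whether the counting used strand. FPKM of *Cmklr1* over FPKM of *Ccrl2* within a library was 4.72, 4.76 and 5.27 in control and 3.42, 3.06 and 3.24 in CITED2-deficient replicates 1 to 3. This ratio was lower in every CITED2-deficient library than in any control library, a description of a pair chosen with its values known.

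*Ccr3*, the eotaxin receptor of eosinophils, was the only one of the 8 past the threshold in the lower direction. Its FPKM was 3.35, 3.18 and 3.61 in control libraries and 2.51, 2.64 and 2.19 in CITED2-deficient libraries. The groups did not overlap, and their means were 3.38 ± 0.217 and 2.45 ± 0.232 FPKM (SD, n = 3). The log2 fold change was -0.35 (SE 0.10, adjusted p = 0.0196 from limma). The call was lost without control replicate 3 (-0.31, adjusted p = 0.0657), without CITED2-deficient replicate 3 (-0.29, adjusted p = 0.0665) and with no filter on low values (adjusted p = 0.0594), while the sign was kept in every alternative. The fragments were 180 to 224 in control and 187 to 209 in CITED2-deficient libraries, a similar number from deeper libraries, with a counting error of 6.68 to 7.45% of each value. The eosinophil markers *Siglecf*, *Prg2*, *Epx* and *Il5ra* summed to 7.25 to 9.22 FPKM in control and 1.32 to 2.70 in CITED2-deficient libraries. *Prg2*, the eosinophil major basic protein, made up most of the control sum, with 6.25, 8.42 and 6.17 FPKM against 1.78, 1.06 and 0.457. *Epx*, eosinophil peroxidase, was at 0.0949 to 0.173 FPKM in control and listed at 0 in the 3 CITED2-deficient libraries. It had only 3 to 5 fragments in control and was below the level tested. *Siglecf* overlapped between the groups. Basophil and mast cell markers, of cells that can also carry CCR3, summed to 1.23 to 2.08 FPKM in control and 0.560 to 0.755 in CITED2-deficient libraries. All 5 of these genes were below the level tested, with 0 to 18 fragments per library, and not all were apart between the groups. The part of these markers in the *Ccr3* value was not tested.

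*Ccr2* and *Ccr3* are neighbors, with 70.3 kb between them, and were called in opposite directions. FPKM of *Ccr2* over FPKM of *Ccr3* was 7.50, 7.42 and 6.67 in control and 14.0, 14.0 and 15.8 in CITED2-deficient libraries 1 to 3. This ratio averaged 7.20 ± 0.457 and 14.6 ± 1.02 (SD, n = 3) in the groups. The pair was chosen for its opposite calls, so the ratio is a description. A ratio within a library does not depend on the scaling between libraries.

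**Figure D2:**
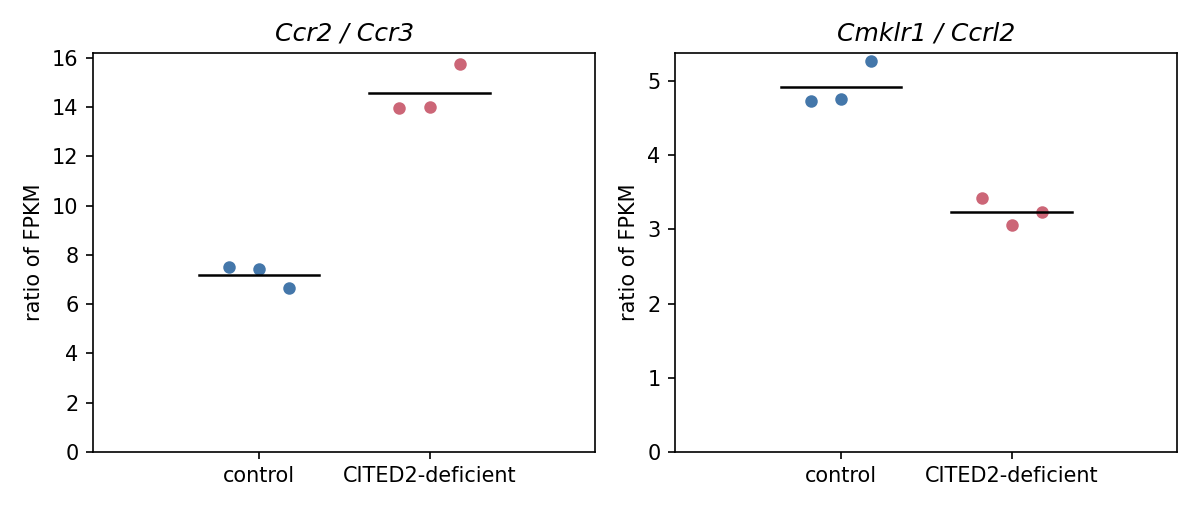
Ratio of *Ccr2* to *Ccr3* FPKM (left) and of *Cmklr1* to *Ccrl2* FPKM (right) in each of 3 control and 3 CITED2-deficient libraries, with lines at the group means and axes from 0. The *Ccr2* to *Ccr3* ratio is 6.67 to 7.50 in control and 14.0 to 15.8 in CITED2-deficient libraries, and the *Cmklr1* to *Ccrl2* ratio is at least 4.72 in control and at most 3.42 in CITED2-deficient libraries.

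*Ccr1*, a receptor of monocytes and neutrophils for CCL3, CCL5 and other CC chemokines and the third gene of this cluster, showed no detectable difference. It had 1.48, 2.23 and 1.77 FPKM in control and 1.53, 2.14 and 1.62 FPKM in CITED2-deficient replicates 1 to 3. The groups overlapped fully, and the log2 fold change was -0.03 with a 95% confidence interval of -0.36 to 0.30 (adjusted p = 0.884 from limma), so changes of either sign up to about that size could not be seen. With 79 to 137 fragments per library, counting error alone was 8.54 to 11.3% of a value.

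*Cxcr3*, the receptor for CXCL9, CXCL10 and CXCL11 that is best known from activated T and NK cells, was at 2.78, 3.81 and 2.99 FPKM in control and 3.07, 2.33 and 2.59 FPKM in CITED2-deficient replicates 1 to 3. The log2 fold change was -0.19 (95% confidence interval -0.48 to 0.10, adjusted p = 0.240 from limma), and the groups overlapped. The T and NK cell markers were near 0, with 6 listed genes summing to 0.530 to 0.956 FPKM in control and 0.432 to 1.11 in CITED2-deficient libraries. The part of such cells in the *Cxcr3* value was not tested. *Cx3cr1*, the fractalkine receptor, was at 1.49, 1.70 and 1.87 FPKM in control and 2.26, 1.86 and 2.15 FPKM in CITED2-deficient replicates 1 to 3. Control replicate 3 and CITED2-deficient replicate 2 were nearly equal, and the log2 fold change was 0.20 (95% confidence interval -0.07 to 0.47, adjusted p = 0.191 from limma). The annotated span of *Cx3cr1* was 168.3 kb and overlapped 9 other genes, 3 of them on the same strand. *Cx3cr1* shared 0.269% of its 50-base stretches with transcripts of other genes. The part of the overlapping genes in its low values was not tested. *Ccr1*, *Cxcr3* and *Cx3cr1* did not pass the threshold under any alternative run.

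**Figure D3:**
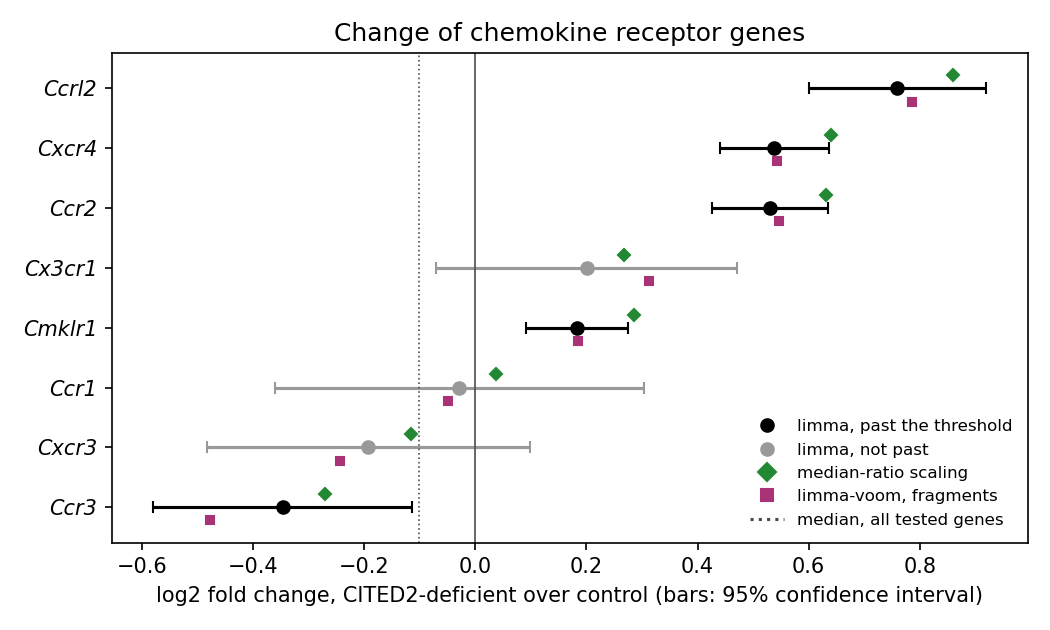
Log2 fold change of FPKM + 1, CITED2-deficient over control, for the 8 receptor genes, with bars for the 95% confidence interval from limma (3 against 3 libraries), diamonds for median-ratio scaling and squares for limma-voom on recovered fragments. *Ccrl2*, *Cxcr4*, *Ccr2* and *Cmklr1* lie above 0 and *Ccr3* below 0, and the intervals of *Ccr1*, *Cxcr3* and *Cx3cr1* include 0.

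FPKM are divided by transcript length, which here matched the average over the annotated transcripts of each gene. The order between genes and the shares of sums below depend on that average. In control BMDMs the order was *Cxcr4*, *Cmklr1*, *Ccr2*, *Ccrl2*, *Ccr3*, *Cxcr3*, *Ccr1* and *Cx3cr1*. The ranges over libraries overlapped between *Ccr3* and *Cxcr3* and between *Ccr1* and *Cx3cr1*, so these neighbors were not distinguished. In CITED2-deficient BMDMs *Ccrl2* (36.0 FPKM) drew level with *Ccr2* (35.5 FPKM), with overlapping ranges, and the 4 low genes overlapped each with the next. The 8 genes summed to 292 ± 7.18 FPKM in control and 393 ± 10.2 FPKM in CITED2-deficient BMDMs (SD, n = 3). *Cxcr4* and *Cmklr1* made up 81.1% ± 0.124 and 79.5% ± 0.863 of these sums, and *Ccr1*, *Ccr3*, *Cx3cr1* and *Cxcr3* together 3.45% ± 0.353 and 2.28% ± 0.163. Among tested genes, *Cxcr4* stood at the 93.0 percentile of level in control and the 95.4 percentile in CITED2-deficient BMDMs, and *Ccrl2* moved from the 58.2 to the 72.9 percentile.

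Several ligand genes of these receptors had larger changes than any of the 8 receptor genes. Of 19 chemokine ligand genes 15 were tested, and 10 were higher, 1 was lower and 4 did not pass, against 16.7% higher and 34.6% lower among all tested genes. The higher genes include *Cxcl9*, which averaged at least 1 FPKM only through its CITED2-deficient values. The median log2 fold change of the tested ligand genes was 0.92. *Ccl5*, a ligand of CCR1 and CCR3, had 4.58, 7.52 and 3.17 FPKM in control and 73.0, 79.4 and 74.0 FPKM in CITED2-deficient replicates 1 to 3 (log2 fold change 3.71, SE 0.21). The groups were far apart, and relative to their mean the control libraries spread more widely. The CCR2 ligands rose with their receptor, *Ccl12* from 1.68 ± 0.310 to 11.9 ± 1.91 FPKM, *Ccl2* from a range of 4.18–6.21 to one of 9.94–10.4 FPKM and *Ccl7*, also a ligand of CCR1 and CCR3, from 3.43 ± 0.439 to 8.04 ± 1.65 FPKM (SD, n = 3). All 3 were past the threshold, with log2 fold changes of 2.27, 0.91 and 1.02. For CCR1, whose own gene did not pass, *Ccl3* (58.3 ± 2.31 and 63.9 ± 4.26 FPKM) and *Ccl6* (630.3 ± 26.3 and 648 ± 36.8 FPKM) did not pass in limma either. *Ccl9* was slightly higher, at 365 ± 2.64 and 387 ± 4.29 FPKM (SD, n = 3; adjusted p = 0.0193 from limma), and its call was lost when control replicate 2, control replicate 3 or CITED2-deficient replicate 3 was left out (adjusted p up to 0.0626).

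The CXCR3 ligands are interferon-induced chemokines that recruit T cells. *Cxcl10* had 5.31, 4.19 and 4.42 FPKM in control and 41.9, 53.1 and 57.7 FPKM in CITED2-deficient replicates 1 to 3, a log2 fold change of 3.20 (SE 0.12, adjusted p = 5.12e-08 from limma). *Cxcl9* was low, with 0.429 ± 0.185 and 1.75 ± 0.730 FPKM (SD, n = 3), and was also called higher (log2 fold change 0.92, or 1.78 with a pseudocount of 0.1 and 1.96 in limma-voom on fragments). *Cxcl9* averaged at least 1 FPKM only through its CITED2-deficient values, so its call is a description and no support. *Cxcl11* was below the level tested, with 0, 0 and 1 fragments in control and 15, 10 and 29 in CITED2-deficient libraries. The genes of all 3 CXCR3 ligands had higher FPKM in every CITED2-deficient library than in any control library, as did 19.0% of tested genes. Of these ligand genes *Cxcl11* was not tested, and *Cxcr3* itself was not called.

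*Cxcl12*, the ligand of CXCR4 and a product of marrow stromal cells, had 3.58, 2.38 and 2.76 FPKM in control and 12.7, 9.11 and 9.97 FPKM in CITED2-deficient replicates 1 to 3 (log2 fold change 1.57, SE 0.14). The library with the highest *Cxcl12* was also the highest in fibroblast genes. Their sum was 42.0 to 50.1 FPKM in control and 169.8 to 539 in CITED2-deficient libraries. All 6 tested markers were called higher, against 16.7% of all tested genes. Of these, 1 averaged at least 1 FPKM only through its CITED2-deficient values, so its call is a description. A further listed marker was below the level tested, with overlapping groups and a lower CITED2-deficient mean. Without CITED2-deficient replicate 1 the log2 fold change of *Cxcl12* was 1.44 (adjusted p = 5.62e-05 from limma). The part of fibroblast RNA in the value was not tested. *Mif*, which also binds CXCR4, did not pass, with 115 ± 7.48 and 110.5 ± 8.59 FPKM (SD, n = 3).

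*Rarres2*, the gene of chemerin, had very few fragments, with 1, 5 and 1 fragments in control and 9, 4 and 10 in CITED2-deficient libraries, below the level tested, although the genes of its receptors *Cmklr1* and *Ccrl2* were both well expressed. The eotaxin genes *Ccl11* (0 to 1 fragments) and *Ccl24* (5 to 11 fragments) were also too low to test, and both overlapped between the groups. *Cx3cl1*, the ligand of CX3CR1, overlapped too, with 3.31 ± 1.36 and 3.51 ± 0.488 FPKM (SD, n = 3). The lower gene was *Pf4*, platelet factor 4, which had 310, 337 and 312 FPKM in control and 79.7, 75.8 and 70.6 FPKM in CITED2-deficient replicates 1 to 3 (log2 fold change -2.07, SE 0.05).

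**Figure D4:**
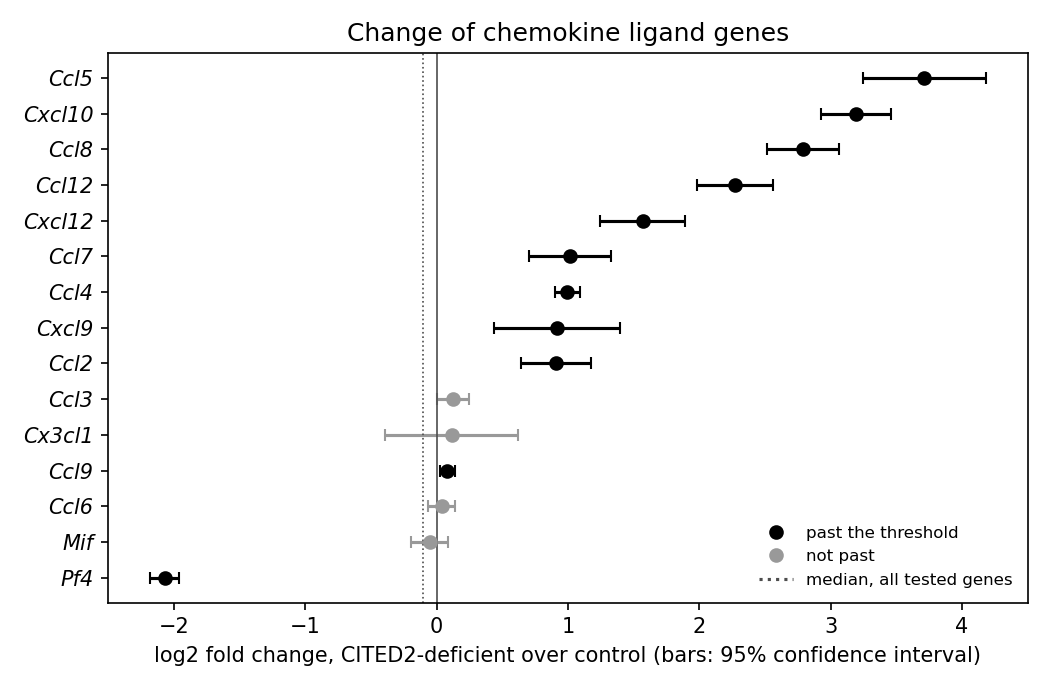
Log2 fold change of FPKM + 1, CITED2-deficient over control, for the 15 tested ligand genes, with bars for the 95% confidence interval from limma (3 against 3 libraries). *Ccl5* is highest at 3.71 and *Pf4* lowest at -2.07, and gray points (*Ccl3*, *Cx3cl1*, *Ccl6* and *Mif*) did not pass the threshold.

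Other receptors for attractants were read as a comparison. Of 29 genes, 26 were listed and 11 were tested, and 5 were higher, 3 lower and 3 not called, against 16.7% higher and 34.6% lower among all tested genes. Their median log2 fold change of -0.11 was close to the -0.10 of all tested genes. *Gpr183*, a receptor for oxysterols, fell from 8.74 ± 1.00 to 2.21 ± 0.578 FPKM (log2 fold change -1.61), and *S1pr1*, a receptor for sphingosine-1-phosphate that promotes exit from lymphoid tissue, from 30.8 ± 0.978 to 15.6 ± 0.527 FPKM (-0.94; SD, n = 3). *S1pr2*, which opposes migration toward the same lipid, rose from 69.5 ± 0.776 to 94.6 ± 3.21 FPKM (log2 fold change 0.44).

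The pathway behind the receptors was read from another list. Of 35 genes for G protein subunits, downstream enzymes, receptor kinases, arrestins and regulators of G protein signaling, 33 were tested, and 7 were higher, 19 lower and 7 not called. Their median log2 fold change was -0.16, against -0.10 over all tested genes, of which 16.7% were higher and 34.6% lower. With median-ratio scaling 8 were higher and 13 lower, against 23.1% and 21.3% of all tested genes. *Pik3cg*, the catalytic subunit of phosphoinositide 3-kinase gamma, fell from 34.2 ± 1.24 to 17.3 ± 0.242 FPKM (SD, n = 3; log2 fold change -0.94, SE 0.05). Among the regulators that speed the turn-off of G proteins, *Rgs10* fell from 395 ± 19.0 to 240.0 ± 8.07 FPKM (log2 fold change -0.72), and *Rgs1* rose from 9.96 ± 1.27 to 15.0 ± 0.251 FPKM (0.55; SD, n = 3). *Rgs16* was low, with 0.829 ± 0.160 and 1.49 ± 0.205 FPKM (SD, n = 3), and its call (log2 fold change 0.45, or 0.84 in limma-voom; adjusted p = 0.0262 from limma) was lost when control replicate 2, control replicate 3, CITED2-deficient replicate 1 or CITED2-deficient replicate 2 was left out, with adjusted p of 0.0545 to 0.0775. *Rgs16* also averaged at least 1 FPKM only through its CITED2-deficient values, so its call is a description.

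For each receptor gene the tested gene of most similar profile was found by the root-mean-square distance of centred log2(FPKM + 1) over the 6 libraries. *Msn*, which encodes moesin, was nearest to *Ccr2* (0.026), *Fabp5*, a fatty acid-binding protein gene, to *Cxcr4* (0.023), *Abcg1*, a cholesterol exporter gene, to *Ccrl2* (0.054), and *Tlk2*, a kinase gene, to *Cmklr1* (0.013). The nearest genes of *Ccr3*, *Ccr1*, *Cx3cr1* and *Cxcr3* were *Dnajb2* (0.029), *Mrps31* (0.046), *Oit3* (0.030) and *Psmd9* (0.047). Profiles over 6 libraries of 2 groups mostly restate the difference between the groups, which was 0.53 in *Msn* and 0.52 in *Fabp5* on the log2 scale.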

How the data were processed

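The 6 libraries (3 control, 3 CITED2-deficient) were made from RNA of resting BMDMs. Ribosomal RNA was removed and stranded libraries were sequenced. The authors mapped reads to mm10 with STAR and deposited FPKM from Cuffdiff with GENCODE annotation for each library, without pooling. The sources used here give neither tool versions nor the annotation release. FPKM are relative to library size, so strongly changed genes can shift others.

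Genes averaging at least 1 FPKM were tested on log2(FPKM + 1), which understates changes of low genes, with limma 3.58.1 in R 4.3.3 (variance trend, Benjamini-Hochberg adjustment over 11687 genes, threshold 0.05, two-sided). Fragments were recovered with GENCODE vM21 transcript lengths. Of 22239 matched genes, 96.1% gave fragment numbers that were whole to within 0.02 in each of the 6 libraries, including all 8 receptor genes. Replicates differed by more than sampling noise (mean chi-square per gene 2.21 to 5.50). Counting errors cover counting only. The limma step was tested on simulated fragment numbers, with far fewer changed genes than were called here.

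Named genes were the 8 receptor genes, *Cited2*, ligands known to bind them, the 4 largest changes past the threshold in each of the other receptor and signaling lists, and the nearest profile of each receptor gene. *Pf4*, *Ltf* and the cell type markers were named as well, *Pf4* and *Ltf* after their values were seen. The receptor genes and lists were chosen with earlier results of these data known. Some genes of the rule and of the marker lists are not reported here. Alternatives were other pseudocounts (0.1, 0.5), no filter or a minimum average of 5 FPKM, median-ratio and quantile scaling, no variance trend, array weights, a replicate block, limma-voom on the fragments, a fold change of at least 2 and each library left out.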

Additional observations from a re-analysis of the deposited data

How the results depend on the processing

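*Cxcr4*, *Ccr2*, *Ccrl2* and *Cmklr1* stayed higher past the threshold in every alternative (log2 fold changes of 0.49 to 0.64, 0.50 to 0.63, 0.71 to 0.86 and 0.15 to 0.29) except an added fold change of at least 2, with which 0 receptor genes were higher and 0 lower. The count of lower receptor genes, 1 in the report, was 0 with no filter, 0 with a mean FPKM of at least 5 (*Ccr3* was then not among the 4 tested) and 0 with median-ratio scaling. Leaving out each library gave 0 to 1 lower receptor genes and 4 higher ones each time. The count of higher other attractant receptors, 5 in the report, was 8 with no filter, where 26 genes were tested. In that setting 2202 of all 22248 genes were higher, and the receptors gained averaged below 1 FPKM. The sign of *Ccr1*, not called anywhere, turned to 0.0375 with median-ratio scaling and to 0.0716, 0.0324 and 0.0058 without control replicate 2, CITED2-deficient replicate 1 and CITED2-deficient replicate 3, with a range of -0.1243 to 0.0716 over libraries left out. *Cx3cl1* turned to -0.1734 without control replicate 2 (range -0.1734 to 0.3054). *Mif* turned to 0.0501 with median-ratio scaling and 0.0070 without CITED2-deficient replicate 2 (range -0.1042 to 0.0070). *Ccl3* passed with median-ratio scaling (adjusted p = 0.00818 in limma), quantile scaling (0.0399) and without CITED2-deficient replicate 1 (0.0194), *Ccl6* with median-ratio scaling (0.0428), and *Ccl9* did not pass without the variance trend (0.106). Where not set by the genes tested, the cause was not tested. Over 489 alternative values of single genes, 465 kept both direction and side of the threshold. Replicate numbers are shared between the groups, but same-numbered libraries did not deviate together (correlations 0.01, 0.01 and 0.04). Deviations were from means of 3 libraries, so whether same-numbered libraries shared a preparation cannot be told from these correlations. With a replicate block 4 receptor genes were higher and 1 lower (*Ccr3* adjusted p = 0.0410 in limma), and over all genes 1895 were higher and 3813 lower, against 1950 and 4044 without it. Among the receptor genes, ligands, other receptors, signaling genes and *Cited2* for which single-gene alternatives were run, the block changed only the call of *Ccl3* (adjusted p = 0.0303). The low depth of *Ccr1*, *Cxcr3* and *Cx3cr1* limits what can be seen for them.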
